A study of Mus musculus with 28 samples.

Results

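Wild-type (WT) induced pluripotent stem cells (iPSCs) were compared with the WT mouse embryonic fibroblasts (MEFs) taken at day 0 (d0), the 2 ends of a reprogramming experiment. The comparison rests on 4 of the 28 poly(A) RNA-seq libraries of the series, 2 labelled WT iPSC and 2 labelled WT d0, and its members are all 37620 genes listed in the deposited count table. The remaining libraries hold WT cells on the days between, WT MEFs that did not receive the reprogramming factors (labelled noOKSM), and cells labelled K36M at the same stages. The factors are Oct4, Klf4, Sox2 and Myc. The name K36M stands for methionine in place of lysine 36 of histone H3. How much of the cells' histone H3 carried that change was not determined here. The library names read H3_3 where the label is WT. They begin with MHb9 for noOKSM libraries and with MHb8 for all others, so noOKSM MEFs in place of d0 also change the set of libraries. What these prefixes stand for is not given in the names. No strain, sex, age or number of animals or clones is given in the labels, nor whether the replicates of a group were grown separately. The p-values below rest on the spread between the 2 libraries of a group, pooled over all 14 groups. That spread may be technical. The MEFs were kept in DMEM with serum and the iPSCs had been passaged in a medium written S/L, so cell state and medium cannot be told apart in this comparison. In such bulk libraries, a fall because fewer cells of a type were present and a fall because each cell held less RNA cannot be told apart either.

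Fibroblasts are connective tissue cells that secrete collagens, hold on to the matrix through integrins and pull on it with actin stress fibres. Reprogramming factors silence that programme and set up the one of the early embryo, in which Pou5f1 (Oct4), Sox2 and Nanog keep each other switched on, the cells grow as tight epithelial colonies, and the cell cycle is short. Mouse iPSCs are commonly held in this state by the cytokine LIF, which signals through Lifr and Stat3.

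Gene counts totalled 22050529 and 23421174 in the MEF libraries and 18221128 and 22050316 in the iPSC libraries, and between 12420 and 13302 genes per library reached 1 CPM (CPM is a gene's count relative to its library's total, here scaled between libraries by TMM). Of 16932 genes with enough counts to test, 6789 (40.1%) were higher in iPSCs and 6325 (37.4%) were lower at an adjusted p below 0.05 in edgeR's quasi-likelihood test, so 77.5% of all genes passed in one direction or the other. The median log2 change over all tested genes was 0.08, and single log2 changes are given ± their standard error (SE). Of the genes that passed, 51.8% were higher, a share that rose to 62.9% without TMM scaling, where the median change was 0.46, so directions of small changes are relative to that scaling. When tested against a change of 2-fold, 44.4% of genes passed, 3973 (23.5%) higher and 3538 (20.9%) lower. Whatever the size, both iPSC libraries lay above both MEF libraries in 45.9% of tested genes and below both in 42.6%. Counts for any gene list below are to be read against these shares.

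The labels were checked against marker genes. All 10 listed markers of pluripotent cells rose, and their summed level went from 2.36 and 2.96 CPM in the MEF libraries to 6036 and 6077 CPM in the iPSC libraries. Of 12 fibroblast markers, 10 fell, and their summed level went from 21505 and 26125 CPM to 825 and 1303 CPM. Both groups therefore carried the genes that their labels call for.

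Gains reached further than losses. Taking genes without counts at one end at the lowest change that 3 counts allow, 798 genes rose by more than 5 on the log2 scale and 223 fell by more than 5, while 318 rose and 17 fell by more than 7. At least 10 CPM in iPSCs with under 0.1 CPM in MEFs was found for 195 genes. The opposite pattern was found for 2, Kcnmb1 and the unnamed transcript 1700009N14Rik. No read was counted in either MEF library for 743 of the 6789 genes that rose, and 85 of these were at 10 CPM or more in iPSCs; no read was counted in either iPSC library for 104 of the 6325 genes that fell, and 0 of these had been at 10 CPM or more in MEFs.

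**Figure D1:**
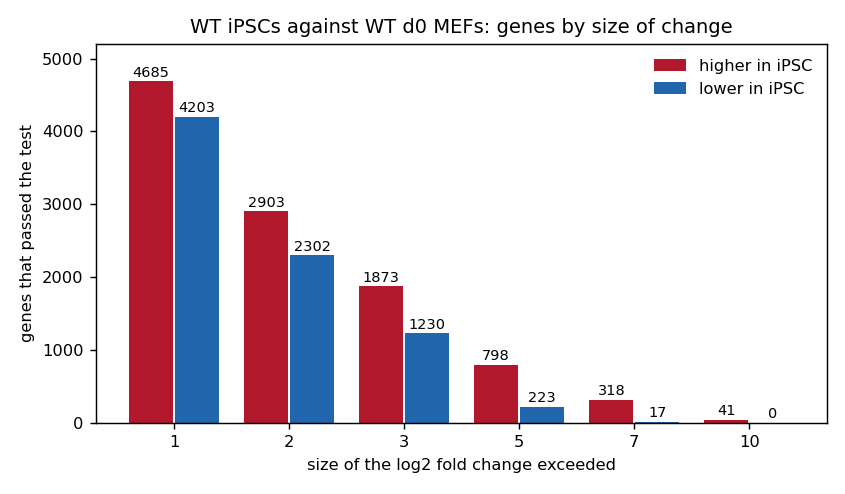
Number of genes that passed the edgeR test (vertical axis) and whose log2 fold change between WT iPSC and WT d0 libraries exceeded the size on the horizontal axis, higher in iPSCs in red and lower in blue; genes with 0 counts at one end are taken at the change that 3 counts would give. The bars are near each other at a log2 change of 1, at 4685 and 4203 genes, and draw apart to 41 and 0 genes at 10.

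The steepest rises held transcription factors of naive pluripotency beside genes better known from other tissues. All 17 core and naive pluripotency factors passed as higher, with a median log2 change of 9.05 (8.33 with genes without MEF counts at their lower bound), against 0.08 over all genes. Zfp42 (Rex1), a zinc-finger protein used as a marker of naive cells, had 0 and 0 CPM in the MEF libraries and 82.7 and 81.7 CPM in the iPSC libraries, at least 1047-fold higher (edgeR adjusted p = 4.7e-14). Nr5a2, a nuclear receptor that binds the Pou5f1 gene, had 0 and 0 CPM in MEFs and 64.3 and 60.6 CPM in iPSCs, at least 793-fold higher. Esrrb, an orphan nuclear receptor of the naive network, stood at 0.0537 and 0.102 CPM in MEFs and 679 and 657 CPM in iPSCs, from 3 MEF reads in all, so that its ratio of 8499 has a counting interval of 2908 to 41217. The iPSC libraries lay far above the MEF libraries for each of these genes, and the 2 iPSC libraries lay close together.

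Not every factor of the network started from nothing. Klf4, also one of the 4 supplied factors, was at 55.7 and 57.8 CPM in MEFs and 787 and 645 CPM in iPSCs, a log2 change of 3.66 ± 0.14. Zfp281, a zinc-finger protein linked to pluripotency, was at 59.6 and 66.5 CPM and 95.1 and 92.6 CPM, and its change of 0.57 ± 0.13 was the smallest among the 17 factors. Per kilobase of exon, the scale on which genes can be compared, Pou5f1 led Klf4, Sox2 and Nanog in iPSCs, with 407, 234, 225 and 192 CPM per kilobase. In MEFs the order was different, with Klf4 at 18.5 CPM per kilobase and the other three at 0.761, 0.729 and 0.232. Whether reads of Pou5f1, Sox2 and Klf4 came from the cells' own genes or from supplied copies was not determined here.

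Among 22 other genes of pluripotent cells, all rose, with a median log2 change of 11.37 (10.03 at the bound). Dppa5a, an RNA-binding protein of the early embryo, was at 0.322 and 0 CPM in MEFs and 1774 and 1980.4 CPM in iPSCs, one of the 10 largest gains in CPM of any gene. Tdgf1 (Cripto), a co-receptor for Nodal, rose from 0.215 and 0.0510 CPM to 1016 and 951 CPM. Spp1 (osteopontin), a secreted phosphoprotein, was the exception in size, since MEFs already held 413 and 349 CPM and iPSCs held 614 and 673 CPM (log2 change 0.76 ± 0.11, edgeR adjusted p = 8.7e-07). The 10 steepest rises also held Nphs1 (nephrin, an adhesion protein known from the kidney filter), at 104 and 111 CPM in the iPSC libraries, and Tfap2c (a transcription factor of trophoblast and germ cells), at 91.2 and 90.7 CPM. They further held Cnpy1 at 71.6 and 66.2 CPM, the fucosyltransferase Fut9, which makes the surface sugar SSEA-1, at 71.2 and 62.0 CPM, and Ano9, of the anoctamin family, at 61.1 and 66.3 CPM. None of these 5 genes had a read in the MEF libraries, and their lower bounds ran from 815-fold for Ano9 to 1376-fold for Nphs1.

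The promoters of 2 of these genes are printed because Pou5f1 and Sox2 are known to bind an 8-base octamer (ATGCAAAT) or, together, a composite of both proteins' sites (CATTGT, any 1 base, then ATGCAAA), and these letters were searched on both strands in the 250 bases before the start of each gene, from RefSeq on GRCm38.p6. Promoters were matched for 26 of the 39 genes of both pluripotency lists, of which 1 held the octamer and 1 held the composite. Over all 27025 genes with a promoter in the table, 1.61% held the octamer and 1 gene, Nanog, held the composite. The composite ends in the first 7 letters of the octamer, and Nanog was counted under the composite only. Capitals mark the motif, which in both genes lies on the other strand and so reads as its reverse complement, and a match is a description of letters, not of binding.
Nanog promoter, chr6:122707374-122707467, plus strand: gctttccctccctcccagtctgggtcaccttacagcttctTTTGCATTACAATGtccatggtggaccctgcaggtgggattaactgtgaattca
Zfp42 promoter, chr8:43307148-43307235, minus strand: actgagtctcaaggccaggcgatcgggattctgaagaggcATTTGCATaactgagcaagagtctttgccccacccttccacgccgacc
The Nanog composite begins 75 bases before the start and the Zfp42 octamer 186 bases before it. Nanog itself was at 0.429 and 0.612 CPM in the MEF libraries and 451 and 407 CPM in the iPSC libraries.

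Genes of the later, primed state and of neighbouring lineages were present at lower levels. Of 10 tested primed and formative genes, 6 rose, 2 fell and 2 did not pass. Otx2, a homeobox factor of the formative epiblast, was at 0 and 0 CPM in MEFs and 19.6 and 16.9 CPM in iPSCs, at least 231-fold higher. Fgf5, the usual marker of the primed epiblast, and Sox11 were the pair that did not pass. Fgf5 passed as lower with the compared libraries alone (log2 change -0.81), with WT libraries alone (-0.83) and without a filter on low counts (-0.85). Against noOKSM MEFs in place of d0, Fgf5 passed as higher (2.25). Sox11 passed as lower without a filter on low counts (-0.35), and its change was -0.60 without WT d0 replicate 1. The pair that fell were Sox4, from 96.4 and 97.5 to 14.9 and 18.1 CPM, and Cdh2 (N-cadherin), from 149 and 173 to 3.11 and 4.06 CPM, which fibroblasts also use. Of 6 tested markers of primed or formative cells, 5 rose, led by Lefty2 (an inhibitor of Nodal) at 69.8 and 73.1 CPM and Nodal at 48.0 and 49.8 CPM in the iPSC libraries, with at most 0.102 CPM in any MEF library. Of 8 trophoblast markers 6 rose and 2 did not pass, and most of their summed iPSC level of 142 and 133 CPM was Tfap2c. Some of them stood low in iPSCs, Cdx2 at 0.10023 and 0.0828 CPM, Hand1 at 0.150 and 0.0828 CPM and Elf5 at 0 and 0 CPM. Mean levels in MEFs and iPSCs were 0.282 and 13.6 CPM for Eomes and 3.94 and 28.9 CPM for Krt7. They were 0.0537 and 3.96 CPM for Ascl2 and 0.0779 and 0.233 CPM for Gcm1. The rises of Cdx2 and Hand1 did not pass without any 1 of MEF replicates 1 and 2 and iPSC replicate 1. Nor did that of Cdx2 pass without iPSC replicate 2. Of 7 primitive endoderm markers 3 rose, 3 fell and 1 did not pass; Gata4 was at 3.51 and 2.11 CPM and Sox17 at 0.401 and 0.207 CPM in iPSCs. No listed gene of 2-cell-like cells had enough counts to be tested.

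**Figure D2:**
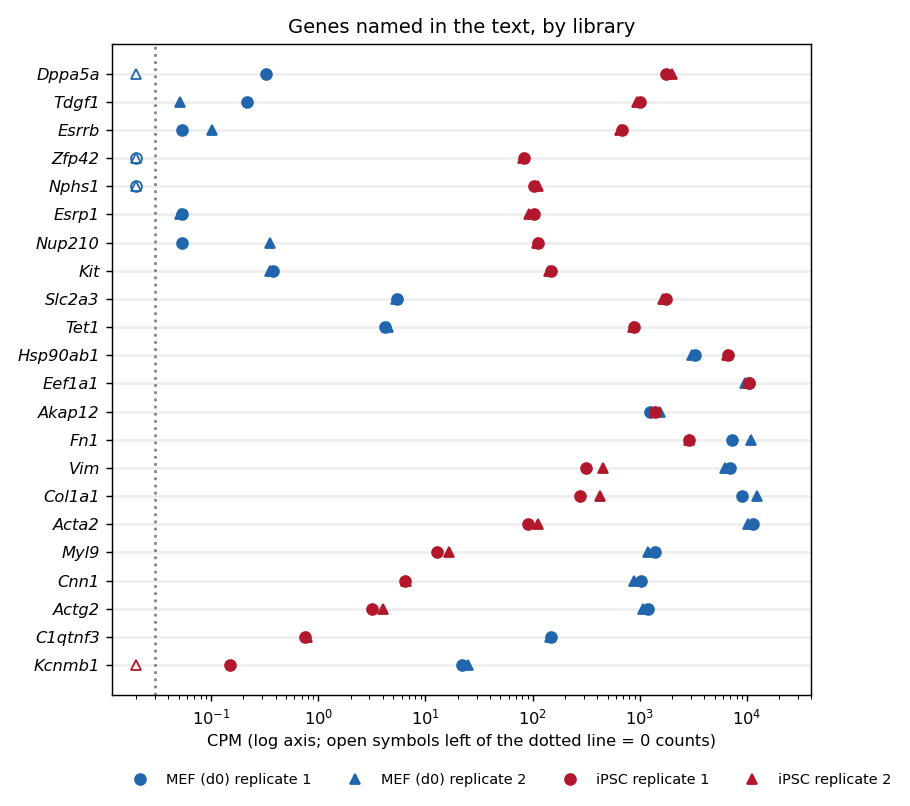
CPM of 22 genes (rows) in the 2 MEF libraries (blue) and the 2 iPSC libraries (red) on a log axis; circles are replicate 1 and triangles replicate 2, and open symbols left of the dotted line mark 0 counts. From Dppa5a down to Hsp90ab1 both red symbols lie right of both blue ones, Eef1a1 and Akap12 hold all 4 symbols close together, and from Fn1 down the blue symbols lie to the right.

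The steepest falls held genes known from smooth muscle and from tendon. Kcnmb1, the beta subunit of the calcium-activated potassium channel of smooth muscle, was at 22.0 and 24.8 CPM in MEFs and 0.150 and 0 CPM in iPSCs, where 3 reads remained, a ratio of 345 with a counting interval of 118 to 1676. C1qtnf3, a secreted protein of the C1q and TNF family, went from 148 and 144 to 0.752 and 0.787 CPM, a log2 change of -7.55 ± 0.21 (edgeR adjusted p = 6.7e-19). Fgd3, an exchange factor for Cdc42, went from 167 and 205 to 0.702 and 1.41 CPM, and Tnmd (tenomodulin), a membrane protein of tendon, from 76.6 and 67.7 to 0.200 and 0.662 CPM. Mrvi1, a substrate of cGMP kinase in smooth muscle, the receptor gene Gpr149 and the carboxypeptidase Cpa6 went from 32.3 and 43.5 to 0.150 and 0.248 CPM, from 50.4 and 50.2 to 0.351 and 0.207 CPM and from 15.7 and 15.5 to 0.10023 and 0.124 CPM. The rule that picked these genes asked for groups that did not overlap, so the separation of the libraries is not a finding.

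Of 30 contractile and focal adhesion genes, 29 fell and 1, Pxn (paxillin), did not pass, with a median log2 change of -3.68. The share of lower calls over all genes was 37.4%. Myl9, the regulatory light chain of smooth muscle myosin, went from 1401 and 1201 to 12.9 and 16.6 CPM (log2 change -6.46 ± 0.22, edgeR adjusted p = 2.2e-17), and Tagln (SM22) from 6915 and 5625 to 91.3 and 111 CPM. Vcl (vinculin), which ties actin to integrins, went from 897 and 1100.3 to 109 and 126 CPM, a change of -3.09 ± 0.39. Srf, the transcription factor that drives such genes, went from 159 and 163 to 75.7 and 78.5 CPM, and its co-activator Mkl1 (MRTF-A) from 103 and 115 to 22.3 and 25.2 CPM, changes of -1.06 ± 0.10 and -2.20 ± 0.14. Pxn was at 59.6 and 66.1 CPM in MEFs and 63.6 and 61.6 CPM in iPSCs, and it passed as higher only without TMM scaling.

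Srf binds the CArG box, and the promoters that hold one are printed for that reason. Promoters were matched for 26 of the 30 genes, and 4 of them (15.4%) held a CArG box within 250 bases before the start on either strand, against 1.40% of all 27025 promoters in the table; the number of genes is small. Capitals mark the box.
Cnn2 promoter, chr10:79988504-79988593, plus strand: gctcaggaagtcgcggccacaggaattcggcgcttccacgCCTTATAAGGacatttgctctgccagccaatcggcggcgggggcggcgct
Myl9 promoter, chr2:156775263-156775352, plus strand: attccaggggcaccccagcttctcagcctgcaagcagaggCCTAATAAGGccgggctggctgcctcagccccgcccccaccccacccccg
Vcl promoter, chr14:20929148-20929220, plus strand: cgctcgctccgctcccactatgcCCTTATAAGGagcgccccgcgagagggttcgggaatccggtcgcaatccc
Srf promoter, chr17:46556175-46556284, minus strand: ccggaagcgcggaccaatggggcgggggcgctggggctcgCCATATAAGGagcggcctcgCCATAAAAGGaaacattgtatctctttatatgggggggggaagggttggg
The Srf promoter holds 2 boxes, the first beginning 82 and the second 62 bases before the start. Among these 4 genes the log2 change ran from -6.46 for Myl9 to -1.06 for Srf, and Cnn2 (calponin 2) went from 1605 and 1420.3 to 101 and 115 CPM.

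Matrix genes fell with the contractile ones. All 21 genes of collagen processing and cross-linking passed as lower, with a median log2 change of -2.79. Serpinh1 (Hsp47), the chaperone of procollagen, went from 3439 and 3416 to 151 and 173 CPM (-4.40 ± 0.10, edgeR adjusted p = 2.3e-20), and the cross-linking enzymes Loxl2 and Loxl1 from 1916 and 2296 to 80.7 and 96.5 CPM and from 508 and 519 to 19.6 and 24.3 CPM. Of 10 caveola genes, which form flask-shaped pits of the plasma membrane, 9 fell and 1, the muscle form Cav3 with 4 reads in MEFs, did not pass. Cav1 went from 623 and 652 to 24.4 and 33.0 CPM, Ptrf (cavin 1) from 1056 and 1019.6 to 69.1 and 93.5 CPM and Sdpr (cavin 2) from 559 and 562 to 9.27 and 14.8 CPM. Of 26 integrins and matrix receptors, 17 fell, 6 rose and 3 did not pass. Itgb1, the beta subunit that many integrins share, went from 4892 and 5038 to 289 and 338 CPM (-3.99 ± 0.17), and Cd44, the receptor of hyaluronan, went from 941 and 954 to 24.8 and 33.4 CPM. Itgb7, a beta subunit best known from lymphocytes, rose from 0.322 and 0.561 to 21.3 and 24.965 CPM.

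A handful of abundant transcripts carried much of the loss. The 10 genes with the largest loss in CPM (among them Thbs1, Acta2, Col1a1, Col1a2, Vim, Tagln, Fn1 and Tpm1) took 6.92% and 7.31% of all counts in the MEF libraries and 0.748% and 0.833% in the iPSC libraries. Thbs1 (thrombospondin 1) was the most changed in CPM, at 13807 and 15762 in MEFs and 395 and 577 in iPSCs. Fn1 (fibronectin) fell least among them, from 7311 and 10808 to 2910.3 and 2908 CPM (-1.64 ± 0.26). The 43 collagen genes together took 2.69% and 3.32% of counts in MEFs and 0.201% and 0.290% in iPSCs. The 10 genes with the largest gain in CPM took 0.900% and 0.815% of counts in MEFs and 3.12% and 3.06% in iPSCs. Hsp90ab1, the constitutive form of the chaperone Hsp90, went from 3285 and 3049.8 to 6665 and 6529 CPM. Apoe, a lipid carrier, went from 21.2 and 16.7 to 1275 and 1203 CPM, a log2 change of 6.03 ± 0.21. The glycolytic genes Aldoa and Pkm2 went from 1145 and 996 to 3232 and 3026 CPM and from 2576 and 2339.8 to 4140.1 and 4109 CPM.

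Fibroblast transcripts were still detected in the iPSC libraries, and iPSC replicate 2 held more of them. The iPSC level was 3.31% of the MEF level for Col1a1, 5.20% for Col1a2, 11.9% for Col3a1, 4.57% for Thy1, 5.52% for Prrx1, 1.33% for Postn and 1.01% for Twist2. Col1a1 was at 9075 and 12287 CPM in MEFs and 279.9 and 428 CPM in iPSCs. All 12 fibroblast markers, including the pair that passed as higher, Dcn (from 4.19 and 4.39 to 4.21 and 8.49 CPM) and Lum (from 0.966 and 0.867 to 1.40 and 2.69 CPM), were higher in iPSC replicate 2 than in replicate 1, by 1.23 to 2.02 times. Without iPSC replicate 2 neither Dcn (log2 change -0.03) nor Lum (0.61) passed. Dcn also did not pass without WT d0 replicate 1 (0.55), without WT d0 replicate 2 (0.62) or with the compared libraries alone (0.61). The same held more widely. Of 398 genes lower beyond 2-fold, with at least 50 CPM in MEFs and under 10% of that level in iPSCs, 374 were higher in iPSC replicate 2, with a median ratio of 1.297, against 396 of 991 genes that rose beyond 2-fold and reached 50 CPM in iPSCs, with a median ratio of 0.986. Without iPSC replicate 2, 12404 genes passed and 7151 did so beyond 2-fold. Whether remaining fibroblasts contribute was not tested. The summed level of 9 macrophage markers was 56.1 and 50.5 CPM in MEFs and 24.1 and 25.6 CPM in iPSCs; 8 of them fell, Lyz2 (lysozyme) from 28.3 and 24.0 to 4.21 and 5.05 CPM and Csf1r from 8.10 and 8.93 to 0.802 and 0.455 CPM, while Cd68 rose. With noOKSM MEFs in place of d0 MEFs, 3 of the 9 macrophage markers fell. Of 4 tested skeletal muscle markers 2 rose, 1 fell and 1 did not pass; the one that fell, Des, went from 94.7 and 83.6 to 33.0 and 36.8 CPM.

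Sex-linked genes also set the iPSC replicates apart. Of 6 listed genes 2 rose, 2 fell and 2 did not pass. Xist, the RNA that coats an inactive X chromosome, had 0 and 0 CPM in the MEF libraries and 25.9 and 35.6 CPM in the iPSC libraries, at least 398-fold higher (edgeR adjusted p = 1.3e-12). Its antisense partner Tsix had 0 and 0 CPM in MEFs and 1.60 and 0.994 CPM in iPSCs, and because the strand setting of the counting is not given in the sources used here, the reads of the pair cannot be told apart. All 4 Y-linked genes were detected in every library. Ddx3y fell from 109.7 and 129.7 to 17.6 and 38.6 CPM and Kdm5d from 28.6 and 30.5 to 3.36 and 5.67 CPM. Eif2s3y was at 77.4 and 76.2 CPM in MEFs and 52.7 and 110.5 CPM in iPSCs and Uty went from 26.0 and 27.0 to 14.2 and 29.2 CPM, and neither passed with all libraries. Each Y-linked gene was lower in iPSC replicate 1 than in replicate 2. Without iPSC replicate 2 Eif2s3y passed as lower (log2 change -0.55), and without replicate 1 it passed as higher (0.53). The labels give no sex, and the part of the cells' origin in these values was not tested.

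Among genes that write and erase DNA methylation, the Tet erasers changed places, while the Dnmt genes given below rose. Of 18 listed genes, 11 rose and 7 fell. Tet1, which oxidises 5-methylcytosine, went from 4.24 and 4.49 CPM in MEFs to 877 and 861 CPM in iPSCs (7.63 ± 0.16, edgeR adjusted p = 1.7e-20), and Tet2 from 10.7 and 12.3 to 176 and 162 CPM. Tet3, the third member, fell from 39.8 and 58.1 to 6.26 and 7.29 CPM (-2.85 ± 0.19). Per kilobase of exon the order thus turned around, from Tet3 at 4.42, Tet2 at 1.254 and Tet1 at 0.297 CPM in MEFs to Tet1 at 59.1, Tet2 at 18.4 and Tet3 at 0.611 CPM in iPSCs. Dnmt3l, a cofactor without catalytic activity, went from 0.161 and 0.0510 to 251 and 275 CPM, the de novo enzyme Dnmt3b from 1.56 and 1.99 to 151 and 169 CPM and the maintenance enzyme Dnmt1 from 134 and 146 to 468 and 462 CPM. The methyl-binding proteins Mbd1 and Mbd2 fell, from 32.2 and 36.7 to 13.7 and 13.5 CPM and from 83.5 and 75.1 to 20.6 and 20.5 CPM.

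BAF remodelling complexes use alternative subunits, and the alternatives moved apart. Of 24 tested subunits 10 rose, 8 fell and 6 did not pass (14, 5 and 5 without TMM scaling). The ATPase Smarca4 (Brg1) was at 302 and 325 CPM in MEFs and 376 and 367 CPM in iPSCs and did not pass (edgeR adjusted p = 0.083; it passed as higher with RLE scaling, at 0.30), whereas its counterpart Smarca2 (Brm) fell from 28.2 and 33.9 to 4.96 and 6.67 CPM (-2.41 ± 0.14). Smarcc1 (BAF155) rose from 178 and 207 to 421 and 407 CPM, and its paralog Smarcc2 (BAF170) fell from 129 and 144 to 43.0 and 44.8 CPM. Smarcd1 rose from 24.7 and 29.5 to 163 and 154 CPM and Smarcd3 fell from 22.7 and 21.6 to 4.46 and 4.02 CPM. For each of these the 2 groups did not overlap, as in most tested genes (45.9% with iPSCs above and 42.6% with iPSCs below).

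Lamins changed places as well. Of 17 genes of the nuclear lamina and envelope, 10 rose, 5 fell and 2 did not pass. Lmna, which codes for lamins A and C, fell from 1039 and 994 to 94.5 and 114 CPM (-3.29 ± 0.09, edgeR adjusted p = 7.4e-19), and Sun2, which links the lamina to the cytoskeleton, from 125 and 128 to 15.0 and 19.2 CPM. Lmnb1 rose from 106 and 108 to 489 and 472 CPM. Per kilobase of exon, MEFs held 239 CPM of Lmna and 36.003 of Lmnb1, and iPSCs held 24.5 and 162. Nup210, a nucleoporin of the pore membrane, went from 0.0537 and 0.357 to 112 and 110.2 CPM. Among 14 histone variants and linker histones 8 rose, 4 fell and 2 did not pass. Linker histone Hist1h1c (H1.2) fell from 124 and 95.2 to 8.27 and 9.77 CPM, H2afx rose from 78.4 and 68.4 to 234 and 231 CPM and the centromeric variant Cenpa from 65.0 and 53.9 to 197 and 194 CPM. Poly(A) selection misses most replication-dependent histone mRNAs, which end without a poly(A) tail.

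Genes of KRAB-linked silencing, which keeps retroelements and imprinted regions methylated, mostly rose. Of 18 tested genes 15 rose, 1 (Pphln1) fell and 2 did not pass. Trim28 (Kap1), the shared corepressor, went from 414 and 407 to 1272 and 1313 CPM (1.65 ± 0.16), the H3K9 methyltransferase Setdb1 from 50.9 and 60.1 to 175 and 177 CPM and Zfp57, which protects imprints, from 55.1 and 50.8 to 361 and 373 CPM.

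**Figure D3:**
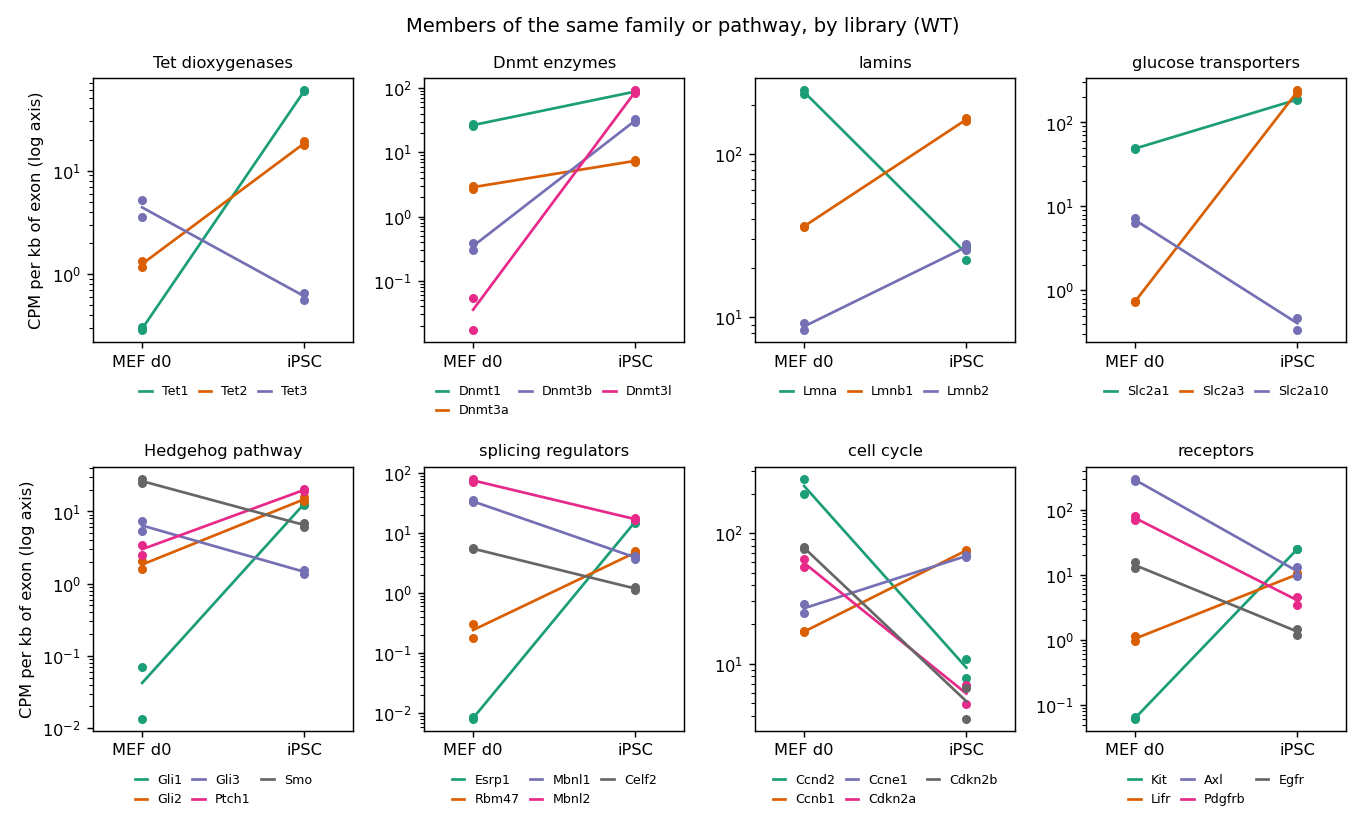
CPM per kilobase of exon (log axis) in MEF d0 and iPSC libraries for members of 8 families or pathways in WT cells; points are libraries and lines join the means of 2. Lines cross in several panels: Tet1 and Tet2 rise above Tet3, Lmnb1 rises above Lmna, Slc2a3 rises above Slc2a1, and Kit and Lifr rise where Axl, Pdgfrb and Egfr fall.

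Regulators of splicing moved in both directions, as did tested genes as a whole (40.1% higher and 37.4% lower). Of 23 tested genes 13 rose, 7 fell and 3 did not pass. Esrp1, the epithelial splicing regulator, had 1 read in each MEF library and 103 and 92.5 CPM in the iPSC libraries, a ratio of 1858 with a counting interval of 514 to 15346. Rbm47 rose from 1.23 and 2.09 to 33.8 and 31.1 CPM. Mbnl1, a muscleblind protein known to hold back stem cell splice forms, fell from 182 and 196 to 20.8 and 23.3 CPM (-3.10 ± 0.12, edgeR adjusted p = 1.4e-16), Mbnl2 from 324 and 359 to 80.0 and 74.7 CPM and Celf2 from 66.2 and 68.3 to 13.9 and 15.3 CPM. Gene counts do not show splice forms, which were not analysed here.

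Of 17 tested genes of microRNA processing and microRNA host transcripts 10 rose, 1 fell and 6 did not pass (8, 5 and 4 with noOKSM MEFs in place of d0). Drosha, which cuts primary transcripts, went from 82.7 and 91.1 to 256 and 257 CPM. Mir17hg, the host transcript of the miR-17-92 cluster on chromosome 14 from 115442101 to 115445949 of mm9, went from 9.61 and 9.03 to 74.3 and 72.6 CPM (2.98 ± 0.15, edgeR adjusted p = 1.2e-14). Mirg, a host transcript of the imprinted Dlk1-Dio3 region, fell from 23.8 and 18.5 to 6.87 and 7.25 CPM. Mature microRNAs were not measured, since poly(A) libraries hold the host transcript only. The main mature products of Mir17hg are printed, from RefSeq on GRCm38.p6, because their seeds (bases 2 to 8, in capitals) fall into a few families.
mmu-miR-17-5p: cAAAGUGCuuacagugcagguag
mmu-miR-20a-5p: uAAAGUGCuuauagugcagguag
mmu-miR-18a-5p: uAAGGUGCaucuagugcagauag
mmu-miR-19a-3p: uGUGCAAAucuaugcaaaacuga
mmu-miR-19b-3p: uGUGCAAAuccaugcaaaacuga
mmu-miR-92a-3p: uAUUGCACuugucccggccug
miR-17 and miR-20a share the seed AAAGUGC, miR-19a and miR-19b share GUGCAAA, and miR-18a and miR-92a have seeds of their own. The 6 listed precursors of the miR-290 and miR-302 clusters had too few counts to be tested.

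Genes of ribosome production mostly rose. Of 24 genes of ribosome biogenesis and RNA polymerase I, 20 rose and 4 did not pass, with a median log2 change of 0.85. Ncl (nucleolin) went from 1261 and 1286 to 2581 and 2749.5 CPM (1.07 ± 0.09) and Npm1 (nucleophosmin) from 1393 and 1179.8 to 2712 and 2620.5 CPM (1.05 ± 0.13). Polr1b, the second largest subunit of the polymerase, went from 33.7 and 40.8 to 112 and 113 CPM. The 84 cytosolic ribosomal protein genes took 5.01% and 3.95% of counts in MEFs and 6.10% and 5.98% in iPSCs.

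Most DNA repair genes rose. Of 32 tested, 28 rose, 2 (Mdm2 and Lig4) fell and 2 did not pass, with a median log2 change of 2.17, and 23 of them were higher beyond 2-fold where 23.5% of all genes were. The mismatch repair gene Msh6 went from 64.7 and 60.9 to 802 and 816 CPM, a change of 3.69 ± 0.11. Parp1, the sensor of strand breaks, went from 82.4 and 92.9 to 1020.4 and 1021 CPM (3.54 ± 0.10, edgeR adjusted p = 5.5e-19), and Bard1, the partner of Brca1, from 6.66 and 8.98 to 109 and 99.1 CPM. Lig4, the ligase of end joining, went from 23.9 and 25.002 to 15.2 and 14.0 CPM, against the direction of the list. Of 15 tested telomere genes 13 rose, 1 (Terf2ip, not without TMM scaling) fell and 1 did not pass. Tert, the catalytic subunit of telomerase, went from 3.22 and 4.80 to 24.8 and 27.9 CPM (2.71 ± 0.20) and Terf1 from 20.4 and 19.4 to 82.9 and 87.3 CPM.

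Cyclins and their inhibitors moved in both directions, as did tested genes as a whole (40.1% higher and 37.4% lower). Of 30 genes 15 rose, 12 fell and 3 did not pass. Ccnd2, a cyclin of the G1 phase, fell from 1145 and 1484 to 44.5 and 61.9 CPM (-4.63 ± 0.18, edgeR adjusted p = 1.6e-16). The inhibitors Cdkn2a, Cdkn2b and Cdkn2c fell from 74.1 and 64.4 to 5.76 and 8.03 CPM, from 110.1 and 105 to 5.26 and 9.07 CPM and from 19.3 and 19.3 to 1.95 and 1.53 CPM, and Cdkn1a (p21) from 644 and 626 to 191 and 200.4 CPM. Ccnb1, the mitotic cyclin, and Ccne1, the cyclin of S phase entry, rose by 2.07 and 1.33 on the log2 scale.

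Regulators of cell death moved in both directions, as did tested genes as a whole (40.1% higher and 37.4% lower). Of 26 tested genes of the Bcl2 family and caspases 13 rose, 10 fell and 3 did not pass. Casp8, the initiator of death receptor signalling, fell from 69.0 and 72.1 to 2.91 and 3.68 CPM (-4.41 ± 0.13, edgeR adjusted p = 1.9e-18), and the anti-apoptotic Bcl2 from 24.4 and 28.6 to 2.15 and 1.41 CPM. Mcl1, another anti-apoptotic member, rose from 265 and 238 to 714 and 683 CPM. Bax, an executioner of mitochondrial death, fell from 318 and 283 to 141 and 159 CPM, whereas the pro-apoptotic BH3-only genes Bmf and Hrk rose, Bmf from 2.04 and 2.86 to 41.6 and 35.4 CPM and Hrk from no read to 9.32 and 7.41 CPM, at least 105-fold higher.

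Receptor genes changed in both directions, as did tested genes as a whole (40.1% higher and 37.4% lower). Of 25 receptor tyrosine kinases 16 fell, 7 rose and 2 did not pass (12, 8 and 5 without TMM scaling). Kit, the stem cell factor receptor, rose from 0.376 and 0.357 to 147 and 143 CPM (8.61 ± 0.31, edgeR adjusted p = 5.4e-17), and Erbb3 from 1.29 and 1.68 to 46.9 and 43.0 CPM. Axl, the most abundant of them in MEFs per kilobase of exon (287 CPM per kilobase), fell from 1405 and 1489 to 47.8 and 66.4 CPM, and Pdgfrb, a receptor of mesenchymal cells, from 382 and 436 to 19.0 and 25.4 CPM. In the LIF pathway 8 of 16 genes rose and 8 fell, with a median of -0.10 that turned to 0.28 without TMM scaling. The receptor Lifr rose from 9.88 and 11.7 to 109 and 101 CPM, and the Stat3 targets Socs3 and Pim1 from 12.6 and 12.7 to 238 and 258 CPM and from 19.107 and 21.0 to 122 and 117 CPM. Stat3 itself fell from 202 and 226 to 126 and 128 CPM and Jak1 from 269 and 319 to 104 and 110.0 CPM.

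Of 23 genes of the Hedgehog pathway and of cilia 9 rose, 11 fell and 3 did not pass, with a median of -0.22 that turned to 0.17 without TMM scaling. Gli1, an effector and target of the pathway, went from 0.268 and 0.0510 to 50.4 and 46.7 CPM (8.22 ± 0.24, edgeR adjusted p = 1.3e-18), the receptor Ptch1 from 16.6 and 22.9 to 134 and 128 CPM and the effector Gli2 from 11.1 and 14.2 to 107 and 95.6 CPM. The signal transducer Smo fell from 92.9 and 106 to 23.0 and 26.0 CPM and Gli3, which is processed into the main repressor, from 51.1 and 71.5 to 13.0 and 15.0 CPM. Genes of desmosomes, tight and gap junctions mostly rose, 17 of 23, with 4 lower and 2 not passing. Dsg2 (desmoglein 2) and Crb3, a polarity protein, had no read in the MEF libraries. In the iPSC libraries Dsg2 was at 33.1 and 33.0 CPM, at least 421-fold higher, and Crb3 at 29.3 and 25.8 CPM, at least 349-fold higher. Those that fell were Jup (not without TMM scaling), Pkp1, Pkp2 and Gjb2, the last from 64.7 and 58.4 to 1.15 and 0.952 CPM.

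Transporter genes moved in both directions, as did tested genes as a whole (40.1% higher and 37.4% lower). Of 23 genes 11 rose, 7 fell and 5 did not pass. Slc2a3 (GLUT3), a high-affinity glucose transporter known from neurons, on chromosome 6 from 122677827 to 122751658 of mm9, went from 5.42 and 5.31 to 1745 and 1638 CPM (8.30 ± 0.13, edgeR adjusted p = 1.9e-22). Slc2a1 (GLUT1) went from 142 and 138 to 521 and 549.8 CPM. Per kilobase of exon, Slc2a3 and Slc2a1 were at 0.740 and 48.9 CPM in MEFs and at 233 and 188 CPM in iPSCs. Slc7a11, the cystine transporter, fell from 14.4 and 16.5 to 0.752 and 0.869 CPM. Lysosome and autophagy genes mostly fell, 20 of 25, with 5 higher and a median of -1.35. Ctsk (cathepsin K), a collagen-degrading protease, went from 89.1 and 75.3 to 1.70 and 2.48 CPM and Ctsd from 1271 and 1159 to 323 and 359.6 CPM. Tfeb, the transcription factor of lysosome genes, was one of the 5 that rose, from 4.88 and 4.39 to 20.8 and 22.9 CPM; others that rose included Npc1 and Mcoln1, the latter of which did not pass without WT d0 replicate 1 or without WT iPSC replicate 2 (0.31 and 0.30).

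Lists of basic cell machinery moved in both directions, as did tested genes as a whole (40.1% higher and 37.4% lower). Of 30 nuclear genes of the respiratory chain 8 rose, 9 fell and 13 did not pass, with a median of -0.06 (17, 1 and 12 with a median of 0.32 without TMM scaling). Cox7a1 and Cox6b2, tissue-specific subunits known from muscle and testis, rose most, from 1.45 and 0.612 to 10.1 and 11.1 CPM and from 4.78 and 4.08 to 42.3 and 42.5 CPM. Of 27 proteasome and chaperone genes 7 rose, 6 fell and 14 did not pass, with a median of -0.01 (17, 3 and 7 with a median of 0.38 without TMM scaling); Cryab, a small heat shock protein of muscle, fell from 118 and 97.0 to 4.21 and 5.71 CPM. Of 24 genes of cholesterol and fatty acid synthesis 6 rose, 12 fell and 6 did not pass, with a median of -0.37 (9, 8 and 7 with a median of 0.02 without TMM scaling). Of 18 clock genes 7 rose, 8 fell and 3 did not pass, with a median of -0.37 (8, 5 and 5 with a median of 0.01 without TMM scaling). Nfil3, a repressor in the clock, fell from 51.8 and 50.4 to 10.9 and 11.2 CPM. For 519 genes the 95% interval of the log2 change lay within 0.32 of no change. The 5 most abundant of them were Eef1a1, Gnb2l1, Atp5b, Akap12 and Ybx1. Eef1a1, a translation elongation factor, was at 10554 and 9635 CPM in MEFs and 10434 and 10151 CPM in iPSCs, and Akap12, a scaffold of protein kinase A, at 1238 and 1536 CPM in MEFs and 1382 and 1397 CPM in iPSCs. Without TMM scaling all 5 passed as higher, so that their small change is relative to that scaling.

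**Figure D4:**
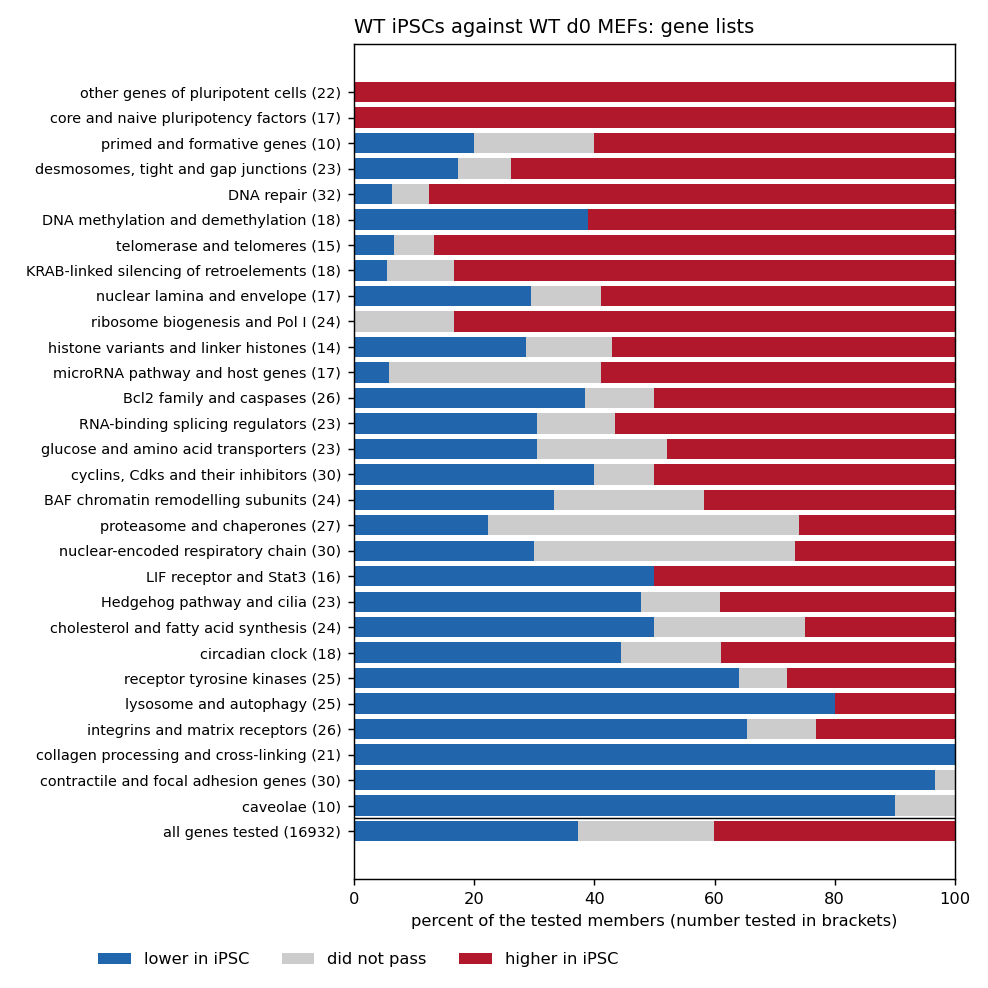
Percent of tested members of 29 gene lists and of all tested genes (bottom bar) that were lower (blue), did not pass (grey) or were higher (red) in WT iPSCs than in WT d0 MEFs by edgeR's test; lists are ordered by their median log2 change and the number tested is in brackets. Pluripotency lists at the top are red throughout, the collagen, contractile and caveola lists at the bottom are blue but for 2 genes, and over all genes 40.1% were higher and 37.4% lower.

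The libraries between the ends show at which stage the change had come about, as means ± SD of 2 libraries in WT cells; they share the MEF libraries with the comparison above and no test was made on them here. Kcnmb1 was at 23.4 ± 2.01 CPM at d0 and 0.220 ± 0.0931 CPM at d2, close to its iPSC level of 0.0752 ± 0.106. Col1a1 went from 10681 ± 2271 CPM at d0 to 359.8 ± 0.555 CPM at d2, and its iPSC level was 354 ± 105. Its levels at d2 and in iPSCs differed by less than the iPSC spread, and it was at 591 ± 48.6 CPM at d8. Not every gene was as low so early. Prrx1, a fibroblast marker, was at 474 ± 18.1 CPM at d0, 357 ± 3.81 CPM at d2, 211 ± 0.910 CPM at d8 and 26.1 ± 7.90 CPM in iPSCs. C1qtnf3 was at 36.5 ± 1.90 CPM at d2 and 109 ± 18.0 CPM at d6, against 146 ± 2.47 CPM at d0 and 0.769 ± 0.0247 CPM in iPSCs. Among genes that rose, Nup210 was early, at 24.0 ± 0.322 CPM by d2 from 0.205 ± 0.215 CPM at d0, and Slc2a3 was at 110.1 ± 1.90 CPM by d2 and 496 ± 47.8 CPM by d8. Zfp42 was late, at 0.0700 ± 0.0309 CPM at d6, 1.56 ± 0.267 CPM at d8 and 82.2 ± 0.681 CPM in iPSCs, and Tet1 stood at 6.90 ± 0.705, 41.0 ± 5.82 and 869 ± 11.0 CPM at the same stages. The Tet3 gene was still at 51.2 ± 1.32 CPM at d8, near its MEF level of 49.0 ± 12.9 CPM, and low only in iPSCs. Mbnl1 likewise stood at 189 ± 9.55 CPM at d0 and 166 ± 4.53 CPM at d8. Some genes took a detour. Ccnd2 went up from 1314 ± 240.2 CPM at d0 to 3908 ± 752 CPM at d4 before its iPSC level of 53.2 ± 12.3 CPM, and Spp1 went down from 381 ± 45.2 CPM at d0 to 4.70 ± 0.175 CPM at d2 before its iPSC level of 643 ± 42.2 CPM. Mean Xist levels lay between 0.122 and 0.434 CPM from d2 to d8 and at 30.7 ± 6.89 CPM in iPSCs.

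The same pair of ends was available from cells labelled K36M, in libraries that share none with the WT comparison. In K36M cells 12792 genes (75.5%) passed, 11567 of them also in WT, and 99.4% of these had the same direction. Over the 16932 tested genes, which share library preparation and are not independent replicates, the log2 changes had a Pearson r of 0.935 and a Spearman rho of 0.931. Of the genes called beyond 2-fold in WT, 83.7% were so called in K36M (where 41.7% of all genes were) in the same direction, and of those called in K36M 89.2% were so called in WT. The size of the change differed between the genotypes, by edgeR's test of the difference, for 1321 genes (7.8%). In 914 of these the K36M change was the smaller one, but the same share was not worked out for all tested genes.

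Some genes of contraction were among the 7.8% of tested genes whose change differed, and how much of their list differed was not counted. Acta2 (smooth muscle actin) fell by 6.73 in WT and by 5.72 in K36M cells on the log2 scale, a difference of 1.02 (edgeR adjusted p = 0.0026), and Tpm1 (tropomyosin 1) by 4.96 and 3.72, a difference of 1.23 (adjusted p = 4.8e-06). Cxcl12, a chemokine of stromal cells, fell from 936 and 928 to 15.0 and 17.9 CPM in WT, and its K36M change was less steep by 2.84 on the log2 scale. Dcaf12l1, an X-linked gene, fell in WT, from 24.3 and 21.1 to 13.7 and 12.6 CPM, and rose in K36M cells, from 2.72 and 2.62 to 14.6 and 16.1 CPM; with noOKSM MEFs in place of d0 the WT change was 0.05 and did not pass. Arhgef16, an exchange factor for small GTPases, had 0 and 0 CPM in WT MEFs and 35.7 and 35.4 CPM in WT iPSCs, and went from 0.938 and 0.737 to 35.1 and 35.6 CPM in K36M cells. Cldn7, a tight junction claudin, went from 0.0537 and 0 to 73.2 and 66.9 CPM in WT and from 0.536 and 0.414 to 70.1 and 66.9 CPM in K36M cells. The WT ratio for Cldn7 rests on 1 MEF read, 2666 with a counting interval of 478 to 105338. For both genes the iPSC levels of the genotypes lay close together and the MEF levels apart. Tet1 rose less in K36M cells, with a difference of -1.40 on the log2 scale (edgeR adjusted p = 6.6e-05). The difference rests on 8 libraries. Its count fell to 694 without WT d0 replicate 1, 770 without WT iPSC replicate 1, 738 and 823 without the K36M d0 replicates 1 and 2, and 864 and 746 without the K36M iPSC replicates 1 and 2. It rose to 1579 without WT d0 replicate 2, 2407 with the 8 compared libraries fitted alone and 3349 with noOKSM MEFs in place of d0.

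**Figure D5:**
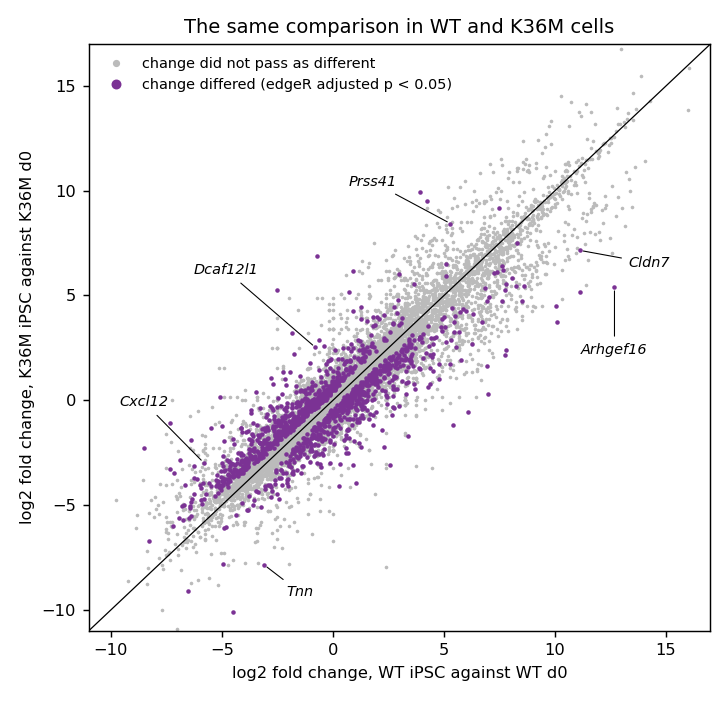
Log2 fold change of iPSC against d0 in K36M cells (vertical axis) plotted against that in WT cells (horizontal axis) for 16932 genes; purple points are the 1321 genes whose change differed by edgeR's test and the line marks equal changes. Most genes lie along the line (Pearson r of 0.935 across genes), with Dcaf12l1, Cxcl12 and Prss41 above it and Arhgef16, Cldn7 and Tnn below it.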

How the data were processed

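Poly(A) RNA was extracted with a miRNeasy kit, made into libraries with a directional NEBNext Ultra kit and sequenced on an Illumina HiSeq instrument, per the labels' protocols. The authors deposited raw read counts per gene in 1 table for 28 libraries (14 groups of 2), with 0 sample columns left unused. STAR 2.5.0, HTSeq 0.11.2, edgeR and build mm9 are named, per the submitters' processing notes. The sources used here do not give the annotation, the strand setting or the treatment of reads with several matches, so counts of near-identical paralogs (histone genes, heat shock genes, Dppa5a), overlapping genes and antisense pairs are uncertain. The columns of iPSC and noOKSM libraries carry no stage, which was taken from the sample with the same library name. The table has no row outside genes, and its 37 mitochondrial genes hold 0 counts.

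Counts were analysed with edgeR 4.0.16 in R 4.3.3. After filterByExpr (minimum count 10, minimum total 15) and TMM scaling, edgeR's robust quasi-likelihood fit took in all 14 groups (16932 genes, 14 residual degrees of freedom). P-values from 2-sided tests were Benjamini-Hochberg adjusted across the genes tested, and genes below 0.05 passed; a change beyond 2-fold was tested with glmTreat. In the text, rose and fell mean passed. Genes with 0 counts in a group have a lower bound on their fold, from 3 counts over that group. Ratios from 1 to 3 counts have a 95% interval, and both cover counting error alone. CPM per kilobase used the union of exons in GENCODE vM1, which held 37205 of the 37620 gene IDs. The fit was also run on simulated counts with known changes. There few genes changed between WT d0 and WT iPSC and all groups varied alike, so the run cannot vouch for scaling or error rates here.

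Members, 30 gene lists and 10 marker lists were chosen with earlier results of these data known, and the lists are described by counts and medians, with no test of a list. Genes were named by a rule that left out predicted genes, clones, pseudogenes and ribosomal proteins and asked for a mean of at least 5 CPM and groups that did not overlap: the 10 largest rises and falls in log2 fold change, the 10 largest gains and losses in CPM, per list the 4 members called with the largest change and the 2 of highest CPM, the 5 most abundant genes with a 95% interval within 0.32 of no change (log2), the 5 largest K36M differences in each direction, the cell type markers, the sex-linked genes and the genes whose promoters are printed. Named outside the rule, after their values were seen, were Klf4, Zfp281, Pou5f1, Sox2, Tet2, Tet3, Mbd1, Mbd2, Mbnl2, Celf2, Bcl2, Ccnb1, Ccne1, Stat3, Slc2a1, Gli3, Egfr and Mkl1, and list members that did not follow their list. Some genes that the rule picks are not reported here. Alternatives were other scalings and filters, the libraries fitted, DESeq2 1.42.0, a replicate block, noOKSM MEFs in place of d0, and each library left out in turn.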

Additional observations from a re-analysis of the deposited data

Results flagged for a closer look

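The iPSC against d0 change differed between K36M and WT cells for 1321 genes by edgeR's test of the difference, and the genes of the report among them are given here with the K36M change minus the WT change on the log2 scale. Genes are listed because their change differed, as it did for 7.8% of all tested genes, so the listing does not show how much of a gene list differed. Among contractile genes and Des, the difference was 1.31 for Myl9, 1.23 for Tpm1, 1.21 for Tagln, 1.02 for Acta2, 0.76 for Des and 0.63 for Cnn2. Each of these fell in WT and fell less in K36M cells. Other genes that fell less were Csf1r (1.95), Lyz2 (2.60), Cxcl12 (2.84), Gjb2 (1.92), Cdkn2a (1.34), Cdkn2b (1.08), Cryab (1.05), Hist1h1c (0.84), Pkp2 (0.65), Tubb3 (0.62), Ctsd (0.46) and Mdm2 (0.44). Dcaf12l1 (3.31) fell in WT and rose in K36M cells, and Tnn (-4.75), which codes for the matrix protein tenascin N, fell more in K36M cells. Among genes that rose in WT, the difference was -1.40 for Tet1, -0.95 for Tet2, -0.53 for Dnmt1, -0.77 for Klf4, -2.76 for Gli1, -1.39 for Gli2, -0.77 for Slc2a3, -0.76 for Socs3, -1.01 for Erbb3, -0.98 for Bmf, -0.78 for Brca1, -0.42 for Parp1 and -0.42 for Terf1, and it was above 0 for Prss41 (3.14) and Pim1 (0.67). The values for Arhgef16 (-7.29) and Cldn7 (-3.96) depend on the prior count, because the WT d0 libraries held 0 reads of the former and 1 of the latter, and that for Prss41 rests on 0 and 0.0921 CPM in the K36M d0 libraries. The count of such genes moved with single libraries, as given in the report.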

How the results depend on the processing

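The count of genes that passed in WT ran from 11430 to 13412 over 13 alternatives (12403 to 12449 with a library left out) against 13114, and the count beyond 2-fold from 6139 with DESeq2 to 7731 without scaling (7054 to 7151 with a library left out) against 7511. In K36M cells the count ran from 11243 to 13194 (11953 to 12016 with a library left out). The count of genes whose change differed between genotypes was less stable: 1321 became 2407 when the fit used the 8 libraries compared alone, 3349 with noOKSM MEFs in place of d0, 1875 without a filter on low counts, 1595 with DESeq2, and 694 to 1579 with a library left out; the cause was not tested. The replicate block gave 13143 genes in WT, 7506 beyond 2-fold, 12820 in K36M and 1330 for the difference. Whether the replicate numbers pair the samples is not given in the labels. The deviations of same-numbered d0 and iPSC libraries correlated at 0.03 in WT and -0.07 in K36M across genes. With 2 libraries a group, these values cannot decide it. For 189 named genes, 2390 of 2440 values kept their side of the threshold, with the same direction where they passed. Another 21 lost the call, 25 gained one in the same direction and 4 passed with the opposite sign. Some values that lost the call also changed sign, such as Terf2ip at 0.03 without scaling. Without scaling beyond the library total Gnb2l1 became 0.31 and Pxn 0.38. Fgf5 became 2.25 with noOKSM MEFs in place of d0. Against d0 it passed as lower with the compared libraries alone (-0.81), with WT libraries alone (-0.83) and without a filter on low counts (-0.85). Eif2s3y ran from -0.55 without WT iPSC replicate 2 to 0.53 without WT iPSC replicate 1. Of 1014 counts of list members, 980 stayed within 1.5 times. With 2 libraries a group, the spread was estimated mostly from the other 12 groups, on 14 residual degrees of freedom, and rests on the assumption that all groups vary alike. The groups did not vary alike by a chi-square of the 2 libraries' counts over the more abundant genes. Per degree of freedom it was 24.0 in WT d0 and 4.60 in WT iPSCs. Over all groups it ran from 2.47 in K36M d0 to 73.1 in K36M d6.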

Other observations

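Some markers of neurons and of endothelium were detected in the iPSC libraries. Of 7 tested neuron markers 4 rose, 2 fell and 1 did not pass in edgeR's test. Neurod1, a transcription factor of neurons and endocrine cells, had 0 and 0 CPM in the WT MEF libraries and 10.1 and 9.77 CPM in the WT iPSC libraries, at least 126-fold higher, and Nefl (neurofilament light chain) rose from 0.161 and 0.153 to 13.2 and 16.6 CPM. The defining neuron gene Dcx had 0 reads in both iPSC libraries, and Tubb3 fell from 130.3 and 125 to 18.6 and 21.2 CPM. Of 7 endothelial markers 3 rose, 2 fell and 2 did not pass, with a median log2 change of -0.12 that turned to 0.26 without TMM scaling. Pecam1 (CD31), an adhesion protein of endothelium, rose from 0.0537 and 0 to 92.8 and 92.4 CPM, and Tie1 and Tek also rose. The 7 markers summed to 9.50 and 12.0 CPM in the WT MEF libraries and 108 and 109 CPM in the WT iPSC libraries. Cdh5, a cadherin of endothelium, was at 0 and 0.0828 CPM in WT iPSCs and the receptor Kdr at 0.150 and 0.745 CPM.

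The change was not even across chromosomes. Of 847 tested genes on chromosome 17, 48.2% were higher and 27.4% lower in WT iPSCs, with a median log2 change of 0.42, the highest median of any chromosome in WT; in K36M cells the median of the same genes was 0.37. By kind of gene, 578 tested pseudogenes were called higher in 24.0% and lower in 12.5%, and 15286 protein-coding genes in 40.8% and 39.1%. No test was made of these differences.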
